A study of Mus musculus with 7 samples.

Results

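The miR-30 family is a group of miRNAs whose guide strands share the same 5′ end. Its members were taken as every form that came from the hairpins mir-30a, mir-30b, mir-30c (mir-30c-1 and mir-30c-2), mir-30d and mir-30e. Of the 252 mouse miRNAs in the processed table, 7 met this rule: the 5 guide strands mmu-miR-30a, mmu-miR-30b, mmu-miR-30c, mmu-miR-30d and mmu-miR-30e, and the star strands mmu-miR-30a* and mmu-miR-30e*, written below without the species prefix. Of the 696 mouse miRNAs on the array, 10 belonged to the family, and the other 3 were miR-30b-3p, miR-30c-1-3p and miR-30c-2-3p.

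A miRNA hairpin is cut into a short duplex, one strand of which (the guide) is usually loaded into Argonaute and represses mRNAs that pair with its seed, while the other strand (the star) is mostly degraded. Because the seed is common to the family, its guide strands are expected to share many targets. In mesenchymal progenitors the family is known to restrain Runx2, the master transcription factor of osteoblasts, and in epithelial cells to restrain Snai1, an inducer of epithelial-mesenchymal transition.

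All cells came from soft tissue sarcomas of p53 knocked out mice and were transduced with a shRNA vector and selected with puromycin. Control primary cells carried a non-target shRNA (2 arrays) and Rb-depleted primary cells a shRNA against Rb (2 arrays), both grown in monolayer with serum, whereas Rb-depleted secondary cells (3 arrays) came from spheres that the Rb-depleted cells formed in serum-free methylcellulose with B27, EGF and bFGF, and were returned to monolayer for 1 passage. Differences that go with Rb depletion were read within primary cells, where both groups grew in monolayer with serum. Differences after sphere formation and return to monolayer were read between the secondary and primary groups of Rb-depleted cells. Secondary cells differ from control primary cells in Rb depletion and in sphere culture at once, so setting these groups side by side does not separate the 2. For these arrays the labels name a single shRNA against Rb, no array of control cells passed through spheres was analysed here, and the number of tumors behind the replicates is not given in the sources used here, so p-values measure the spread between these arrays only. An miRNA array holds no probe for Rb mRNA, so its depletion could not be checked.

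The mature sequences of the guide strands miR-30a, miR-30e and miR-30c (RefSeq, GRCm38.p6), with the seed (bases 2 to 8) in capitals, show how far these 3 can be told apart by hybridization:
miR-30a: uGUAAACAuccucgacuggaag
miR-30e: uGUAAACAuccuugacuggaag
miR-30c: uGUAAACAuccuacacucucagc
The first 12 bases are the same in all 3. Counted from the 5′ end, miR-30e differs from miR-30a by the single substitution C13U, and miR-30c by C13A, G14C, G18C, G19U and A20C among 22 positions compared. The site paired by this seed is UGUUUAC. Among the 1679 mature mouse sequences searched, 4 carry the seed: miR-30a, miR-30c, miR-30e and miR-384-5p, the last of which was detected on 0 of 7 arrays. The sequences of miR-30b and miR-30d were not analysed here, so they are not part of this count. The star strands are shown because their shared seed is another one:
miR-30a*: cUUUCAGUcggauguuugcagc
miR-30e*: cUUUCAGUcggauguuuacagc
They differ by the single substitution G18A. Whether RNA of one member also bound the probes of another was not tested.

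The 6 hairpins lie in 3 pairs on the NCBIM37 (mm9) genome. Mir30a (chr1:23279108-23279178) and Mir30c-2 (chr1:23298540-23298623) are on the plus strand, with 19361 bases between them and no annotated gene over either. Mir30e (chr4:120445211-120445302) and Mir30c-1 (chr4:120442139-120442227) are on the minus strand, 2983 bases apart, and both are in intron 5 (chr4:120441505-120446276) of a 10-exon transcript of Nfyc, which encodes a subunit of the transcription factor NF-Y and is read from the same strand. Mir30b (chr15:68168977-68169072) and Mir30d (chr15:68172770-68172851), also on the minus strand, are 3697 bases apart and overlap no annotated gene. Mature miR-30c is made from hairpins of 2 of these pairs, and the array cannot say from which.

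The 7 miRNAs of the table were detected on all 7 arrays. On the arrays of the series, 258 to 287 mouse miRNAs were detected, and the summed signal of the 252 table miRNAs averaged 544542 ± 8424 (SD, n = 2), 467065 ± 48719 (SD, n = 2) and 453857 ± 15442 (SD, n = 3) intensity units in control, Rb-depleted primary and Rb-depleted secondary cells. All 8 mesenchymal marker miRNAs were detected on every array, with a summed signal of 81508 to 87978, 68959 to 79885 and 75443 to 89317, and 0 of 7 epithelial markers on any. Most of the mesenchymal sum was miR-21 (mean 65921, 59540 and 63351 in the same order of groups), so it says little about the dimmer markers. For some markers of other cell types the summed signals, which are not normalized, differed between groups, as did the summed signal of the table. The neural miR-9 was detected on every array and the neural miR-124 on none, with a summed neural signal of 123 to 125 in control, 68.7 to 99.9 in Rb-depleted primary and 49.4 to 101 on the secondary arrays. Of 4 striated muscle markers, miR-206 was detected on every array and the other 3 on none (summed signal 46.6 to 47.3, 28.1 to 44.1 and 13.2 to 36.7). After normalization the groups overlapped for miR-206 in every comparison. The endothelial miR-126-3p was detected on the 4 arrays of primary cells and on no array of secondary cells, and the endothelial list of 2 summed to 9.94 to 10.8, 7.12 to 9.20 and 0.20, an undetected miRNA being set to 0.10. Of 8 pluripotency markers, miR-290-5p was detected on the 2 control arrays alone (summed signal 10.71 to 16.95, against 0.80 elsewhere) and the other 7 on none. Of the 6 blood markers on the array, miR-451a was detected on 1 primary Rb-depleted array (summed signal up to 9.31, against 0.60 elsewhere), and the liver miR-122 was detected on none. The part of these cell types in the values below was not tested, and in cultured cells fewer cells of a type and less RNA per cell cannot be told apart.

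Expression levels below are the deposited log2 signals after quantile normalization, which puts the arrays on one distribution. A level is the brightness of the probes of 1 miRNA and is compared between arrays, not between miRNAs. Without normalization, the median log2 fold change of all 252 miRNAs was -0.26 for primary and -0.46 for secondary Rb-depleted cells against control, and -0.18 between secondary and primary cells, so each change below is relative to this shift.

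In Rb-depleted secondary cells, miR-30d was 0.43 ± 0.092 (SE) log2 units higher than in control primary cells and passed the test, miR-30e stood 0.27 ± 0.095 higher and miR-30c 0.54 ± 0.22 lower without passing it, and miR-30a stayed within 0.03 ± 0.065 of its control level. In Rb-depleted primary cells no member passed the pairwise test. The moderated F-test over the 3 groups (limma, adjusted p under 0.1) called 2 of the 7 members, miR-30d (adjusted p = 0.0526) and miR-30e (adjusted p = 0.0888), beside 43.3% of all 252 miRNAs. The next member by the limma F-test was miR-30c, with an adjusted p of 0.118. The F-test call of miR-30d was lost without normalization, with scaling to the 75th percentile over the table miRNAs, with slide as a term, with the replicate number as a block, and without control array 1, control array 2 or secondary array 1. That of miR-30e was lost under these settings too, and also with all detected miRNAs in the fit, with the classical analysis of variance, and without any other single array. The number of members called was 0 without each control array and without secondary array 1, 1 without either primary Rb-depleted array or secondary array 3, and 3 (miR-30b, miR-30c and miR-30d) without secondary array 2.

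**Figure D1:**
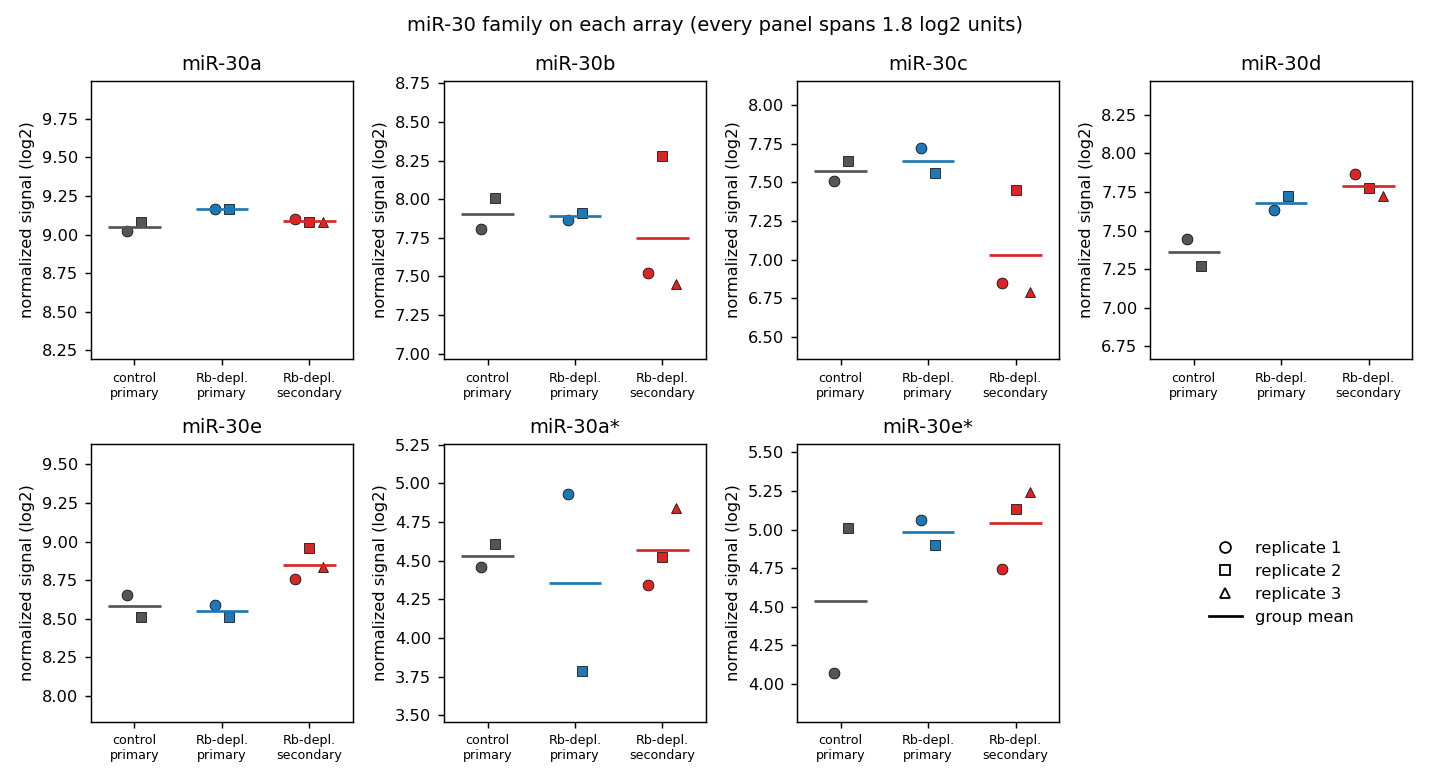
Normalized log2 signal (vertical axis) of the 7 members in control primary, Rb-depleted primary and Rb-depleted secondary cells (horizontal axis). Each symbol is 1 array, the shape gives the replicate number, bars are group means and every panel spans the same number of log2 units: the 3 secondary arrays of miR-30d and miR-30e sit above both control arrays, those of miR-30c below, and those of miR-30a between 9.08 and 9.10.

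mmu-miR-30d, a guide strand from the chromosome 15 pair, had log2 levels of 7.45 and 7.27 on the control arrays, 7.64 and 7.72 on the primary Rb-depleted arrays, and 7.87, 7.77 and 7.72 on the secondary arrays. Both groups of Rb-depleted arrays lay above both control arrays, and they overlapped with each other. The difference from control was 0.32 (95% interval 0.069 to 0.57, adjusted p = 0.141, limma) for primary and 0.43 (0.20 to 0.66, adjusted p = 0.0298, limma) for secondary Rb-depleted cells. After Dunnett's adjustment of the limma statistics both comparisons passed (adjusted p = 0.0363 and 0.00716), which made miR-30d the only 1 of the 7 members to do so, beside 6.75% of all miRNAs. Secondary and primary Rb-depleted cells differed by 0.11 (-0.12 to 0.34, adjusted p = 0.417, limma).

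This rise was relative to the other miRNAs on the array. In the scanner's output, before normalization, the total signal of miR-30d measured 200.01 and 190.4 intensity units on the control arrays, 201 and 194 on the primary Rb-depleted arrays, and 209.6, 198 and 184 on the secondary arrays. The brightness of miR-30d itself was therefore nearly level, while the median miRNA dimmed, and without normalization its log2 fold change was 0.018 for primary (adjusted p = 0.935, limma) and 0.015 for secondary cells (adjusted p = 0.930, limma). The secondary call also rested on several arrays. Its adjusted p in limma was 0.0778 without control array 1, 0.115 without control array 2, 0.0724 without secondary array 1 and 0.0609 without secondary array 3, and the call passing Dunnett's adjustment in both comparisons was lost (0 of 7 members) without any 1 of the 7 arrays.

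mmu-miR-30e, from the Nfyc intron, had log2 levels of 8.66 and 8.51 on the control arrays, 8.59 and 8.51 on the primary Rb-depleted arrays, and 8.76, 8.96 and 8.84 on the secondary arrays. The secondary arrays were the highest, and the control and Rb-depleted primary arrays overlapped. Secondary cells stood 0.27 above control (0.031 to 0.51, adjusted p = 0.111, limma) and 0.30 above Rb-depleted primary cells (0.063 to 0.54, adjusted p = 0.0742, limma), neither of which passed 0.05. Control and Rb-depleted primary cells differed by -0.03 (-0.29 to 0.23, adjusted p = 0.9002, limma). Without normalization the secondary difference from control turned to -0.15.

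mmu-miR-30c, made from one hairpin beside mir-30e and another beside mir-30a, had log2 levels of 7.51 and 7.64 on the control arrays, 7.72 and 7.56 on the primary Rb-depleted arrays, and 6.85, 7.45 and 6.79 on the secondary arrays. The 3 secondary arrays lay below every array of primary cells, but secondary array 2 was much closer to the primary arrays than the other secondary arrays were. The difference of secondary cells was -0.54 from control (-1.08 to -0.0012, adjusted p = 0.137, limma) and -0.61 from Rb-depleted primary cells (-1.15 to -0.070, adjusted p = 0.0919, limma). Without secondary array 2 these became -0.75 (adjusted p = 0.0122, limma) and -0.82 (adjusted p = 0.0139, limma), so in the deposited values the result depended on this array. Without normalization miR-30c was 0.957 log2 units lower than in control (-0.96, adjusted p = 0.00981, limma). Rb-depleted primary cells differed from control by 0.07 (-0.52 to 0.66, adjusted p = 0.906, limma).

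mmu-miR-30b, which shares its genomic pair with mir-30d, had log2 levels of 7.81 and 8.0 on the control arrays, 7.87 and 7.91 on the primary Rb-depleted arrays, and 7.52, 8.28 and 7.45 on the secondary arrays. Secondary array 2 was the highest of all arrays and the other secondary arrays were the lowest. The differences were -0.02 (-0.75 to 0.71, adjusted p = 0.978, limma) in Rb-depleted primary cells, -0.16 (-0.82 to 0.51, adjusted p = 0.711, limma) in secondary cells relative to control, and -0.14 (-0.80 to 0.53, adjusted p = 0.745, limma) between secondary and primary cells. Without secondary array 2, miR-30b was 0.42 lower in secondary than in control cells (-0.42, adjusted p = 0.0392, limma) and 0.40 lower than in Rb-depleted primary cells (-0.40, adjusted p = 0.0431, limma).

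mmu-miR-30a, a guide strand from the chromosome 1 pair, had log2 levels of 9.02 and 9.08 on the control arrays, 9.16 and 9.16 on the primary Rb-depleted arrays, and 9.10, 9.08 and 9.08 on the secondary arrays. Its arrays spanned 9.02 to 9.16, the narrowest range of the 7 members. The equal values within groups came from quantile normalization, since 0 of the 2 equal pairs were equal in the scanner's output. Its differences were 0.11 (-0.065 to 0.29, adjusted p = 0.375, limma), 0.03 (-0.13 to 0.20, adjusted p = 0.729, limma) and -0.08 (-0.24 to 0.084, adjusted p = 0.414, limma) in the same order of comparisons. In the scanner's output its signal was 653 and 702, 626 and 511, and 531, 421 and 467 intensity units, which put secondary cells -0.52 log2 units from control without normalization (adjusted p = 0.0329, limma).

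The star strands were dim. miR-30a* had log2 levels of 4.46 and 4.61, 4.93 and 3.79, and 4.34, 4.52 and 4.84 in control primary, Rb-depleted primary and Rb-depleted secondary cells, and miR-30e* had 4.07 and 5.01, 5.06 and 4.90, and 4.74, 5.13 and 5.24. All 3 groups overlapped for both strands, although for miR-30e* control array 1 was the lowest of the 7. Secondary cells differed from control by 0.04 (-0.84 to 0.91, adjusted p = 0.956, limma) for miR-30a* and by 0.50 (-0.26 to 1.26, adjusted p = 0.290, limma) for miR-30e*. Rb-depleted primary cells differed from control by -0.18 (-1.14 to 0.78, adjusted p = 0.810, limma) and 0.44 (-0.39 to 1.28, adjusted p = 0.443, limma). Secondary cells differed from Rb-depleted primary cells by 0.21 (-0.66 to 1.09, adjusted p = 0.708, limma) and 0.06 (-0.71 to 0.82, adjusted p = 0.931, limma). The coefficient of variation between the spots of 1 probe on 1 array had a median of 22.6% for miR-30a* and 20.2% for miR-30e*, against 7.20% for miR-30d.

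**Figure D2:**
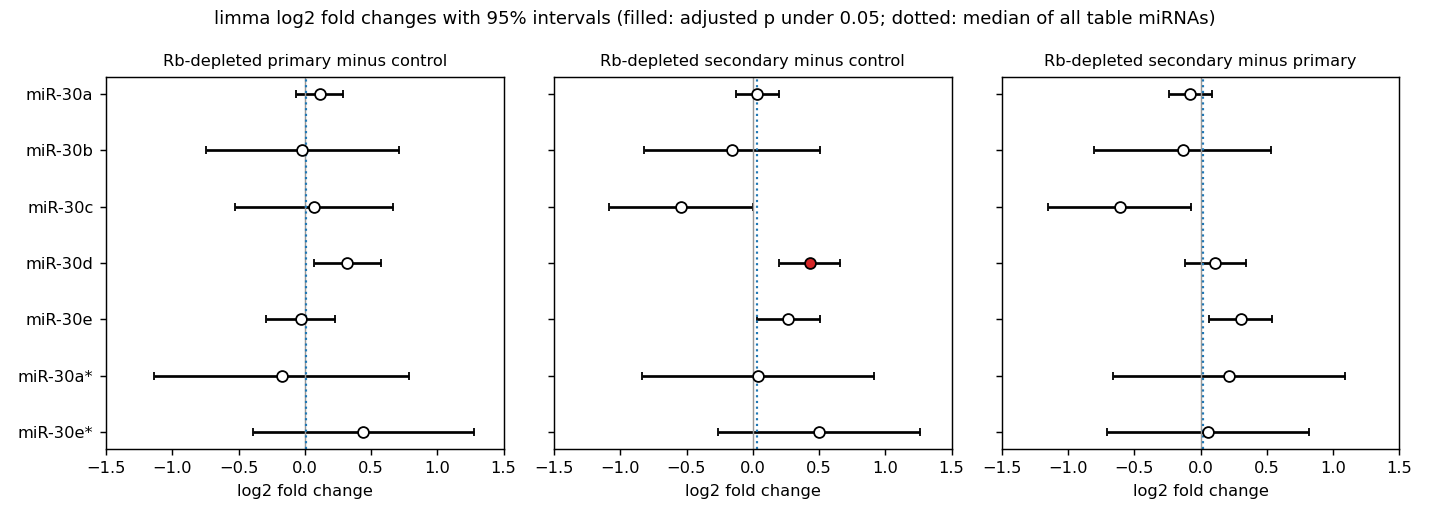
Log2 fold change (horizontal axis) of each member (vertical axis) with its 95% interval from limma in the 3 comparisons, a filled point marking an adjusted p under 0.05 and the dotted line the median of all 252 miRNAs. The only filled point is miR-30d in the comparison of secondary with control cells, at 0.43, and the star strands have the widest intervals.

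Over the family, 0 of 7 members passed in Rb-depleted primary cells relative to control (limma, adjusted p under 0.05; 1 at an unadjusted p under 0.05, and 0 with trend and robust moderation), beside 1.59% of all miRNAs. In secondary cells 1 of 7 passed relative to control, beside 22.6%, and 3 of 7 had an unadjusted p under 0.05. Between secondary and primary Rb-depleted cells 0 of 7 passed in limma, beside 20.2%, with 2 at an unadjusted p under 0.05 and 0 with trend and robust moderation. The median log2 fold change of the 7 members was 0.07, 0.04 and 0.06 in these comparisons, beside 0.01 (0.0082), 0.03 and 0.02 for all 252 miRNAs. The groups did not overlap for 2, 3 and 3 members, beside 57.5%, 52% and 51.2% of all miRNAs, so the family as a whole did not stand out from the table. Of those without overlap in secondary cells relative to control, miR-30d and miR-30e had higher values (2 of 7, beside 29.8% of all) and miR-30c lower values (1 of 7, beside 22.2%), which is close to the shares in the table, and miR-30d alone passed the pairwise test.

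The distance between 2 members on the same array does not depend on any factor by which a whole array is scaled, so the guide strands were also compared in this way on the scanner signal, for all 10 pairs. miR-30c minus miR-30d measured 0.14 and 0.33 log2 units on the control arrays, 0.09 and -0.18 on the primary Rb-depleted arrays, and -0.94, -0.39 and -0.88 on the secondary arrays. The 3 secondary arrays lay below every array of primary cells, and the mean of the difference changed by -0.97 from control to secondary cells. miR-30c minus miR-30e was -0.95 and -0.93, -0.92 and -1.05, and -1.93, -1.36 and -1.95, a mean change of -0.81 with no overlap between secondary and primary arrays.

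Mir30c-1 and Mir30e share an intron and a strand, and miR-30c is also made from Mir30c-2. In the normalized levels miR-30c was lower and miR-30e higher on the secondary than on the control arrays, neither passing the test. In the scanner's output both were lower, miR-30c by more. There miR-30e measured 427 and 455 intensity units on the control arrays and 417, 390 and 388 on the secondary arrays. The distance between the 2 members of the chromosome 15 pair also changed in the scanner signal. There miR-30b minus miR-30d measured 0.40 and 0.67 on the control arrays, 0.34 and 0.22 on the primary Rb-depleted arrays, and -0.26, 0.31 and -0.22 on the secondary arrays. On this scale every Rb-depleted array lay below both control arrays, by a mean of -0.26 and -0.60. In the normalized levels the secondary and control arrays overlapped. Secondary array 2 (0.51) lay between the control arrays (0.36 and 0.73). Among the secondary arrays, miR-30b and miR-30c varied together. Their difference in the scanner signal was 0.26 and 0.34, 0.25 and 0.40, and 0.68, 0.70 and 0.66. It was thus larger on the secondary arrays than on every array of primary cells, by a mean of 0.38 against control and 0.35 against Rb-depleted primary cells. In the scanner signal, secondary array 2, which stood apart for both, thus had nearly the same distance between them as the other secondary arrays. In the normalized levels this distance was 0.67, 0.83 and 0.66 on the secondary arrays, largest on secondary array 2.

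miR-30a minus miR-30d was 1.71 and 1.88, 1.64 and 1.40, and 1.34, 1.08 and 1.34 in the same order of groups. It was lower in Rb-depleted primary cells than in control (mean change -0.28) and lower still in secondary cells (-0.54), with no overlap between any 2 groups. miR-30a minus miR-30e was 0.61 and 0.62, 0.63 and 0.53, and 0.35, 0.11 and 0.27, lower on the secondary arrays than on every array of primary cells. In all, the groups did not overlap for 4 of 10 pairs for primary Rb-depleted against control cells, 7 of 10 between secondary and control cells and 5 of 10 between secondary and primary cells. Among all 31626 pairs of table miRNAs the shares were 65.2%, 60% and 55.4%, so the number of such pairs in the family was near or below that of the table.

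**Figure D3:**
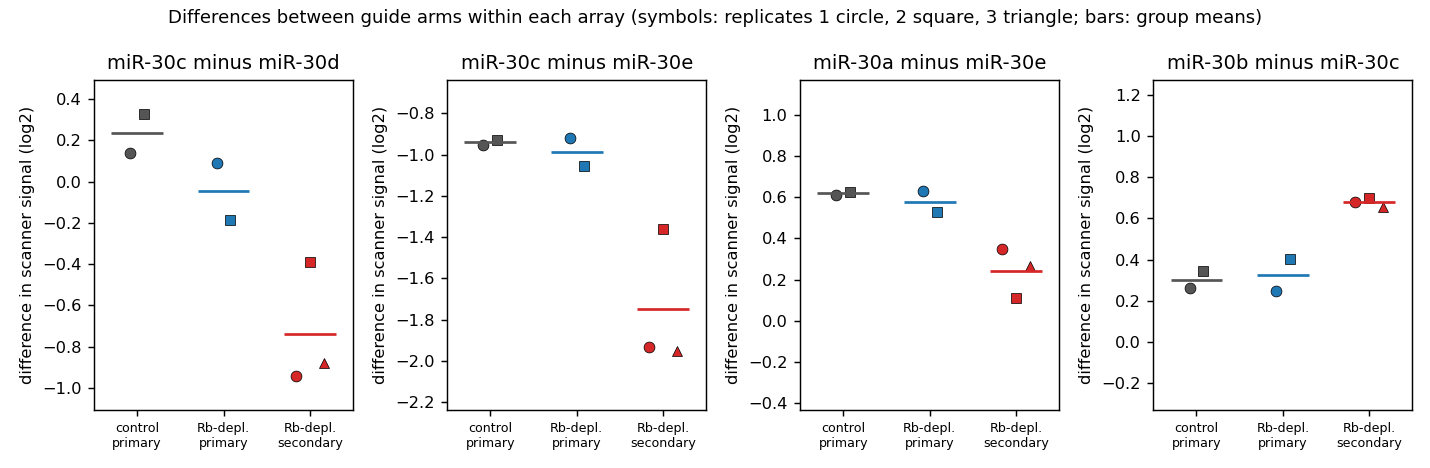
Difference in log2 scanner signal between pairs of guide strands on the same array (vertical axis) in the 3 groups (horizontal axis), with 1 symbol for each array and bars for group means. The difference between miR-30c and miR-30d goes from 0.14 and 0.33 on the control arrays to -0.94, -0.39 and -0.88 on the secondary arrays, while that between miR-30b and miR-30c lies between 0.66 and 0.70 on all 3 secondary arrays.

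Relative to the summed signal of the 5 guide strands, miR-30c made up 12.5% and 12.7% on the control arrays, 12.6% and 11.7% on the primary Rb-depleted arrays, and 7.57%, 10.8% and 7.72% on the secondary arrays. The share of miR-30d was 11.3% and 10.1%, 11.8% and 13.3%, and 14.5%, 14.1% and 14.2%, and that of miR-30e 24.2% and 24.1%, 23.8% and 24.3%, and 28.9%, 27.7% and 29.9%. These are shares of brightness and not of molecules, since probes differ in brightness. The guide strands together held 0.32% and 0.35% of the summed signal of the table on the control arrays, 0.34% and 0.34% on the primary Rb-depleted arrays, and 0.31%, 0.32% and 0.29% on the secondary arrays. All 3 secondary arrays lay below the 4 arrays of primary cells in this percentage, narrowly so (0.3159% on secondary array 2, 0.3205% on control array 1). Single miRNAs did not overlap as often as 52% (secondary against control) and 51.2% (secondary against primary) of the time. The percentage also depends on very bright miRNAs in the summed signal, such as miR-21 (mean 65921 intensity units in control cells).

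**Figure D4:**
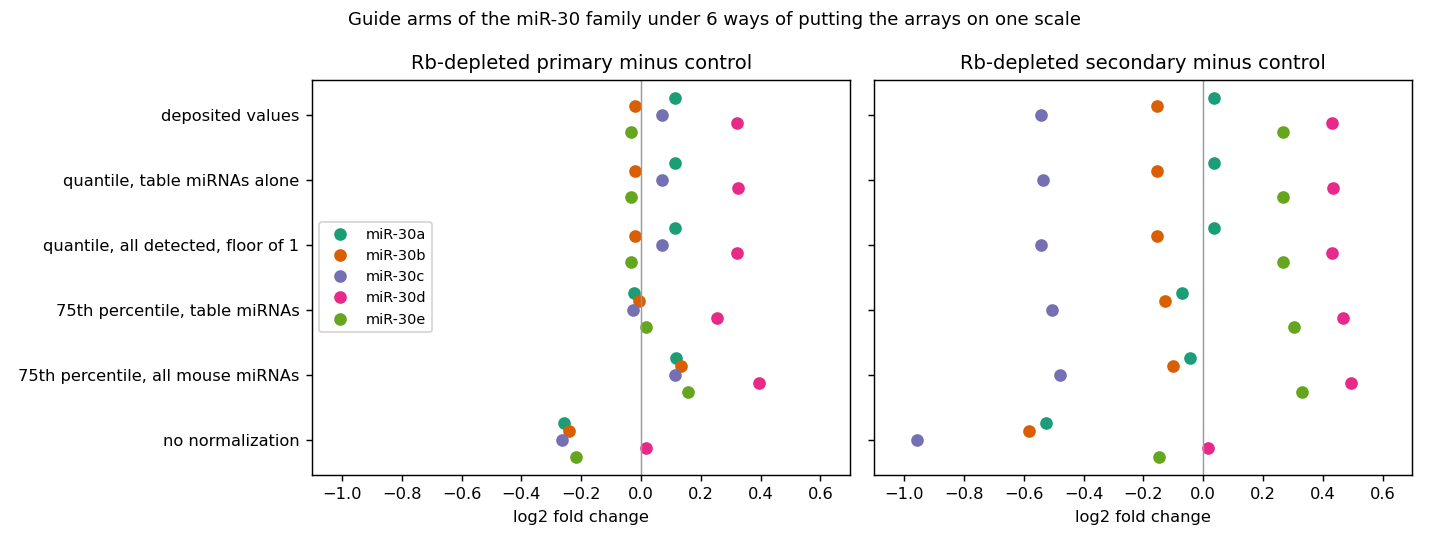
Log2 fold change relative to control (horizontal axis) of the 5 guide strands in Rb-depleted primary and Rb-depleted secondary cells under 6 ways of putting the arrays on one scale (vertical axis). In secondary cells miR-30d moves from 0.43 in the deposited values to 0.015 without normalization and miR-30c from -0.54 to -0.96.

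Each of the 7 members in the table was read by 2 or 3 probes, each spotted 6 to 10 times, and the probe signals were compared relative to the median of the array. Both probes of miR-30d were higher in Rb-depleted primary (0.44 and 0.36 log2 units) and in secondary cells (0.53 and 0.48) than in control, with no overlap of arrays. Both probes of miR-30e were higher in Rb-depleted primary (0.22 and 0.14) and in secondary cells (0.34 and 0.33), also without overlap. The normalized level of miR-30e differed by -0.03 between primary Rb-depleted and control cells. The brighter probe of miR-30c, which carried 85.3% of its signal, was 0.46 lower in secondary cells (-0.46) with no overlap, and the dimmer one 0.56 lower (-0.56) with overlap. The 3 probes of miR-30a moved by -0.17, -0.08 and 0.02 in secondary cells, the first 2 without overlap and the last with overlap. The 2 probes of miR-30b moved by -0.42 and -0.05, both with overlap. The share of probes without overlap was not computed over the whole array. In the normalized levels, groups did not overlap for 57.5% of all miRNAs in primary and 52% in secondary cells relative to control.

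**Figure D5:**
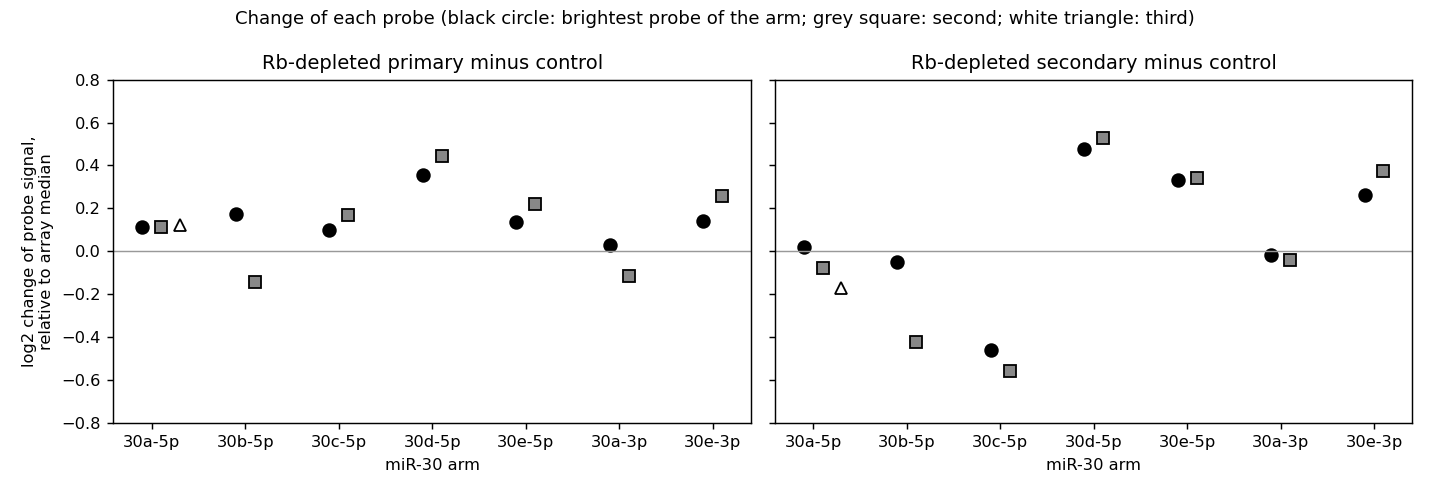
Log2 change of each probe relative to the array median (vertical axis) for the 7 members (horizontal axis, named by arm), for primary and for secondary Rb-depleted cells against control. Both probes of miR-30d lie between 0.36 and 0.53 in the 2 panels, and in secondary cells both probes of miR-30c lie at -0.46 and -0.56.

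The relation between both arms of 1 hairpin was compared as the guide level minus the star level on each array. For mir-30a this difference measured 4.57 and 4.47 log2 units on the control arrays, 4.23 and 5.38 on the primary Rb-depleted arrays, and 4.76, 4.56 and 4.24 on the secondary arrays, and for mir-30e it was 4.59 and 3.50, 3.53 and 3.61, and 4.02, 3.82 and 3.59. The groups overlapped in all 6 comparisons. Two-sided exact permutation tests gave p from 0.30 to 1.0 and an adjusted p of 1.0 in each of the 6, where the smallest p these designs allow is 0.333 for 2 against 2 arrays and 0.10 for 3 against 2.

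The arrays lay on 2 slides, with all primary arrays and secondary array 1 on the first and secondary arrays 2 and 3 on the second. Within the first slide, secondary array 1 differed from the control mean by 0.51 for miR-30d, 0.18 for miR-30e, -0.72 for miR-30c, -0.38 for miR-30b and 0.05 for miR-30a. The mean of the secondary arrays of the second slide differed from it by 0.39, 0.31, -0.45, -0.04 and 0.03, in the same directions. For miR-30b this mean joined arrays on both sides of the control mean of 7.91, secondary array 2 at 8.28 and secondary array 3 at 7.45. Within the first slide there was only 1 secondary array, and with slide as a term the adjusted p of miR-30d in secondary cells relative to control was 0.0774 (limma).

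Over the 7 arrays, after each miRNA was centred on its own mean, the guide strand nearest to miR-30a was miR-30d (mean absolute difference 0.15 log2 units, n = 7 arrays), and the reverse also held. The nearest to miR-30e was miR-30d (0.15), to miR-30b miR-30a (0.20), and to miR-30c miR-30b (0.21). The 3 miRNAs outside the family whose levels were most like the mean of the 5 guide strands were miR-99b (0.060), miR-106b (0.061) and miR-1906 (0.074), all of which differed by at most 0.27 log2 units in any comparison and passed none (adjusted p from 0.0669 to 0.883, limma).

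Other miRNAs known to target Runx2, or to restrain epithelial-mesenchymal transition, were read from 2 lists of 10. Of the miRNAs known to target Runx2, 3 of 10 were in the table (miR-23a, miR-34c and miR-218), of which 0 passed in Rb-depleted primary cells relative to control, 1 was higher in secondary cells relative to control (13.1% of all miRNAs were), and 0 passed between secondary and primary cells (limma; 0 were lower in any comparison). miR-34c, a miRNA known to be induced by p53, was 1.01 ± 0.20 (SE) log2 units higher in secondary cells (adjusted p = 0.0246, limma), and miR-218 stood 0.58 ± 0.16 higher without passing (adjusted p = 0.0512, limma). Of the miRNAs known to restrain epithelial-mesenchymal transition, 3 of 10 were in the table, all of the miR-34 family, and the 7 others, the miR-200 family with miR-203 and miR-205, were detected on no array. Of these 3, 0 passed in Rb-depleted primary cells relative to control. miR-34b-5p (1.02 ± 0.17, adjusted p = 0.0175, limma) and miR-34c were higher in secondary cells relative to control, as were 13.1% of all miRNAs. miR-34c is on both lists, so it is counted in each. miR-34b-5p (0.71, adjusted p = 0.0413, limma) and miR-34a (1.51 ± 0.32, adjusted p = 0.0307, limma) were higher in secondary than in primary Rb-depleted cells, as were 12.7% of all miRNAs.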

How the data were processed

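Total RNA (100 ng) was labelled with Cy3 and hybridized by the authors to 1-colour Agilent mouse miRNA arrays. The authors deposited scanner intensity values from Feature Extraction (11.0.1.1 in the file headers, 10.7.3.1 in the submitters' processing notes) and a table of log2 values, quantile normalized in GeneSpring, for 252 mouse miRNAs and 11 control entries, which were left out. Quantile normalization of the log2 total signal of 718 scanner features gave the deposited log2 values to within 3.2e-06. Table columns were matched to arrays through the scanner file that each names. The members and lists were chosen with earlier results of these data known.

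All 252 miRNAs were fitted in R 4.3.3 with limma 3.58.1, with 3 group means over 7 arrays. The tests were a moderated F-test (Benjamini-Hochberg adjusted p under 0.1), Dunnett's adjustment in both comparisons with control (0.05), and pairwise contrasts (adjusted p under 0.05). Dunnett's adjustment was made within each miRNA and not over the 252. Files were read with Python 3.11.15, pandas 2.3.3 and numpy 2.4.6, and plots drawn with matplotlib 3.10.9. The procedures were tested on simulated data. Named were every member, the 3 miRNAs outside the family nearest to its guide mean, each guide's nearest member, and the passing members of the 2 lists. miR-218 was named after its values were seen. Hairpin loci are from the GENCODE annotation of NCBIM37. Alternatives were 75th percentile scaling (table or all mouse miRNAs), quantile normalization of the table alone, no normalization, the dimmest miRNAs left out (189 tested), all detected miRNAs with a signal floor of 1 (312 tested), replicate number as a block, slide as a term, trend and robust moderation, classical tests, and each array left out. The number of arrays limits the precision. Comparisons with control share the control arrays.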

Additional observations from a re-analysis of the deposited data

Results flagged for a closer look

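miR-30b-3p, the star strand of mir-30b and no part of the processed table, was detected on 1 of 7 arrays, Rb-depleted secondary array 3, with a total signal of 4.44 intensity units, and on neither control array. The lowest signal of any detected mouse miRNA was 3.47 on that array, 4.51 on control array 1 and 4.85 on control array 2. It was 4.18 and 3.38 on the primary Rb-depleted arrays, 5.37 on secondary array 1 and 3.81 on secondary array 2. A signal of this size thus lay under all detected signals on the control arrays and secondary array 1, but not on the other arrays. miR-30c-1-3p and miR-30c-2-3p were detected on 0 of 7 arrays. The groups of 2 and 3 arrays are too small for a test of single arrays that lie far from the others.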

How the results depend on the processing

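The F-test call count of 2 of 7 members became 1 with scaling to the 75th percentile over the table miRNAs (miR-30c), 1 with all detected miRNAs (miR-30d), 3 (with miR-30c added) with that scaling over all mouse miRNAs and with trend and robust moderation, 0 with slide as a term, and 0 to 3 with an array left out. Without normalization it was 2, but miR-30a and miR-30c. The count of 1 past Dunnett's adjustment in both comparisons with control became 0 with 75th percentile scaling over the table, without normalization, with slide as a term, and without any single array (0 to 0). It was 1 with the classical tests, whose analysis of variance called miR-30a and miR-30d. The count of 1 in secondary cells relative to control became 0 with 75th percentile scaling over the table (miR-30d, adjusted p = 0.0832, limma), 2 without normalization (miR-30a and miR-30c), 0 with slide as a term, and 0 to 3 with an array left out. The count of 0 between secondary and primary cells ranged from 0 to 2 with an array left out, the 2 (miR-30b and miR-30c) being without secondary array 2. The count of 0 in primary cells stayed at 0 under all of these.

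Whether the replicate numbers pair the arrays could not be settled. In a group of 2 arrays the deviations from the group mean mirror each other, so few independent values remain. Deviations of same-numbered arrays correlated at 0.13 between control and Rb-depleted primary cells, 0.07 and -0.08 between control and secondary cells, and 0.04 and -0.14 between the Rb-depleted groups. With the replicate number as a block, the F-test, Dunnett and secondary counts were each 0. The block turned the log2 fold change of miR-30a* to -0.10 (secondary minus control), of miR-30b to 0.015 and of miR-30e* to -0.043 (both secondary minus primary), and the arm difference of mir-30a to 0.14 (secondary minus control).

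Some changes that did not pass the pairwise test in the deposited values turned direction under other settings. Without normalization, miR-30a was -0.26 (primary minus control) and -0.52 (secondary minus control), miR-30a* -0.72 (secondary minus control) and -0.051 (secondary minus primary), miR-30c -0.26 (primary minus control), miR-30d -0.0030 (secondary minus primary), miR-30e -0.15 (secondary minus control), and miR-30e* -0.12 (secondary minus control) and -0.16 (secondary minus primary). With 75th percentile scaling over the table, miR-30a was -0.023 (primary minus control) and -0.072 (secondary minus control), miR-30a* -0.27 (secondary minus control), and miR-30c -0.028 and miR-30e 0.017 (both primary minus control). With that scaling over all mouse miRNAs, miR-30a was -0.045 and miR-30a* -0.24 (both secondary minus control), miR-30b 0.14 and miR-30e 0.16 (both primary minus control), and miR-30e* -0.055 (secondary minus primary). Quantile normalization of the table alone gave miR-30a* -0.070 (secondary minus control), and slide as a term -0.19 (secondary minus control) and -0.013 (secondary minus primary), with miR-30e* at -0.24 (secondary minus primary). The arm difference of mir-30a in secondary cells relative to control, -0.0030, became 0.20 with either 75th percentile scaling and without normalization, and 0.10 with quantile normalization of the table alone.

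With each array left out in turn, the changes that turned ranged, for primary minus control, from -0.75 to 0.40 (miR-30a*), -0.12 to 0.079 (miR-30b), -0.015 to 0.15 (miR-30c), -0.11 to 0.041 (miR-30e) and -0.030 to 0.91 (miR-30e*). For secondary minus control the range was -0.10 to 0.15 (miR-30a*). For secondary minus primary they were -0.36 to 0.79 (miR-30a*), -0.40 to 0.015 (miR-30b) and -0.043 to 0.21 (miR-30e*). Arm differences ranged from -0.28 to 0.86, -0.12 to 0.14 and -0.86 to 0.28 for mir-30a in the 3 comparisons, and from -1.02 to 0.071 (primary minus control) and -0.78 to 0.31 (secondary minus control) for mir-30e. A group left with 1 array was assumed to vary like the others. The cause of these turns was not tested. In secondary cells relative to control, miR-30d was higher and miR-30c and miR-30b lower in every setting run, whether or not they passed.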
